A study of Mus musculus with 8 samples.

Results

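The MHC class II presentation genes are the 10 genes H2-Aa, H2-Ab1, H2-Eb1, Cd74, Ciita, H2-DMa, H2-DMb1, H2-DMb2, H2-Oa and H2-Ob, whose products build, load and switch on the complexes that show peptides to CD4+ T cells. They were chosen by gene symbol in the deposited expression matrix, which gave 16 of the 41174 probes on the array, and 10 of the 21229 genes with a symbol. Whole-lung RNA was compared between 4 wild-type and 4 Scgb3a2-transgenic mice on the C57BL/6 background, males of 8 to 10 weeks that received no treatment. The transgenic mice carry a mouse Scgb3a2 cDNA driven by the promoter of the human surfactant protein C gene, which is active in lung epithelium, and the line descends from a single founder, so an effect of the insertion site cannot be told apart from that of the transgene. Each array held Cy5-labeled RNA of 1 mouse against a Cy3-labeled pool of lung RNA, and values are log2 ratios of mouse over pool. The comparison asks whether the untreated lungs of the 2 genotypes differed in these transcripts.

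Class II molecules are heterodimers on B cells, dendritic cells and macrophages, and lung alveolar type II epithelial cells also carry them. The alpha and beta chains are paired in the endoplasmic reticulum with the invariant chain, the product of Cd74, which is later cut down to a short peptide in the groove. H2-DM, made from H2-DMa with H2-DMb1 or H2-DMb2, exchanges that peptide for others, and H2-DO, made from H2-Oa and H2-Ob and found mostly in B cells, restrains H2-DM. Ciita is the coactivator that switches on class II promoters, where it is held by factors bound to the X box and the Y box. C57BL/6 mice make the A molecule from H2-Aa and H2-Ab1, while their E alpha chain gene is defective.

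RefSeq promoters (build GRCm38.p6) were matched for 7 members, and those of 6 are shown because their shared Y box letters let peptide-binding chains and H2-DM and H2-DO genes be read side by side. Capitals mark the Y box letters GATTGG and, where present, the letters AACNNATG within the X box, all on the strand of the gene and before its start.
H2-Aa: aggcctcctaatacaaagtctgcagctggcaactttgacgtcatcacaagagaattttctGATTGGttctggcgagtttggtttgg
H2-Eb1: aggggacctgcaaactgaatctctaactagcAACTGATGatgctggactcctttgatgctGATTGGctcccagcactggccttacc
H2-DMb1: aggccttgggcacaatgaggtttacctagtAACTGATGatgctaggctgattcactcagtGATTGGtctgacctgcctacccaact
H2-DMb2: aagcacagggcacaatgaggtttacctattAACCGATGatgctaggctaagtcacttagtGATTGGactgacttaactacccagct
H2-Oa: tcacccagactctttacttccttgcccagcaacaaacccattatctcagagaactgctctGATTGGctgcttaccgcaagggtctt
H2-Ob: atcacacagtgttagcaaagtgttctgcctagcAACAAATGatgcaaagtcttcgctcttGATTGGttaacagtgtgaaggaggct

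These stretches lie at chr17:34287847-34287932 (minus strand) for H2-Aa and, on the plus strand, at chr17:34305747-34305832 for H2-Eb1, chr17:34153069-34153154 for H2-DMb1, chr17:34145098-34145183 for H2-DMb2, chr17:34092275-34092360 for H2-Oa and chr17:34238787-34238872 for H2-Ob. In these the Y box began between 44 bases (H2-Oa) and 91 bases (H2-DMb2) before the start. Of the 2 promoters of H2-DMa, which are not shown, 1 held GATTGG at 199 bases before its start and the other did not hold it, and AACNNATG was in neither. On either strand, GATTGG was found in 14.6% and AACNNATG in 7.71% of 32851 mouse promoters searched over 250 bases before the start. The pair in this order on 1 strand, 10 to 30 bases apart, was found in 25 promoters, or 0.0761%, among them those of H2-Eb1, H2-DMb1, H2-DMb2 and H2-Ob, where the gap was 19 to 22 bases. The letters were chosen with the member promoters in view, so these shares are descriptions.

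Each of the 10 genes had a probe that cleared the background in the mouse channel of 8 of 8 arrays. The 8 arrays had 32257 to 34709 probes well above background, 1.72% to 6.46% of spots flagged as outliers and 0 saturated spots. They were printed on 4 slides, each with 1 mouse of each genotype, and scanned on 2 days with 2 slides each. Scgb3a2, a secreted airway protein and the product of the transgene, was higher by 0.88 on the log2 scale in the transgenic lungs (SE 0.24, 1.84-fold, unadjusted p = 0.00329, adjusted p = 1.0 by limma, exact permutation p = 0.0571) and was higher on 4 of 4 slides. On the slide with the smallest gap, which held wild-type replicate 3 and transgenic replicate 4, that difference was 0.16.

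None of the class II genes passed the adjusted test between the genotypes. Of 15 probes tested, 10 were higher and 5 lower in the transgenic lungs, and 0 had an adjusted p under 0.05 by limma, against 0 of all 32645 probes tested (0% called). At an unadjusted p under 0.05 there was 1 probe, that of Ciita, against 2.09% of all probes (1.12% higher and 0.974% lower). By gene, taking the brightest probe of each, 7 were higher and 3 lower, with a median difference of 0.09 on the log2 scale beside 0.00099 over all probes, of which 50.4% were higher. The genotypes overlapped on each of the 15 probes, while they did not overlap on 1.97% of all probes. The 95% intervals of the 15 differences ran from as low as -0.58 to as high as 0.84.

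**Figure D1:**
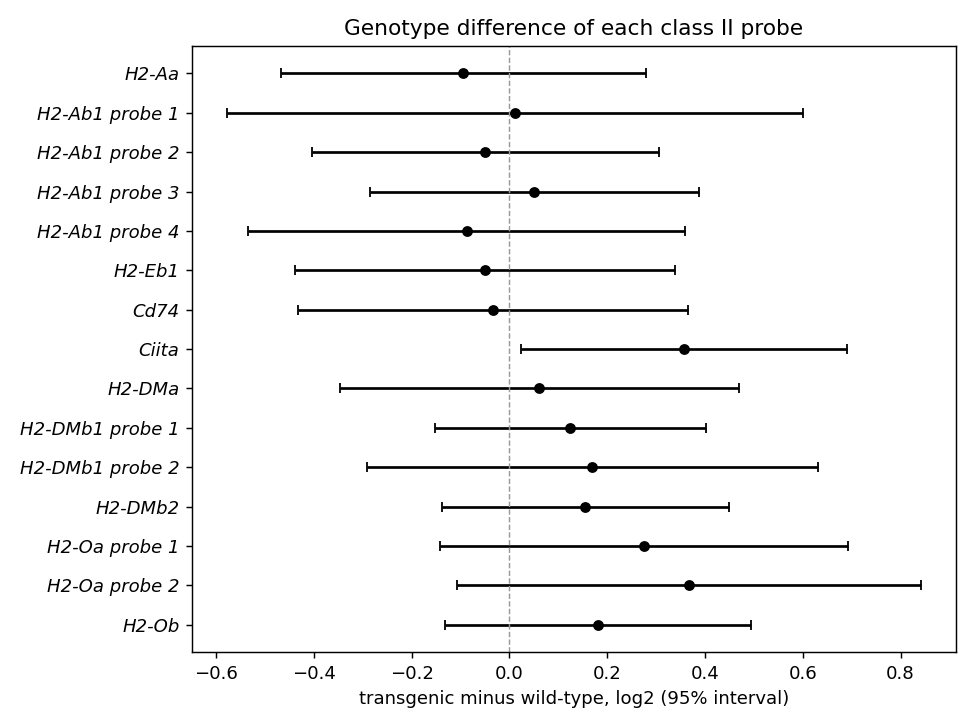
Genotype difference (transgenic minus wild-type, log2, horizontal axis) of the 15 class II probes tested, with points for the limma estimate and bars for its 95% interval. Only the interval of Ciita, 0.02 to 0.69, lies wholly on 1 side of 0, and it is not adjusted for the number of probes.

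Ciita, the coactivator of class II transcription, had log2 ratios of -0.29, -0.69, -0.93 and -0.55 in the wild-type lungs and of -0.01, -0.17, -0.51 and -0.34 in the transgenic lungs. The means were -0.61 ± 0.27 and -0.26 ± 0.22 (SD, n = 4 each), and the groups overlapped, since wild-type replicate 1 stood above transgenic replicates 3 and 4. The difference was 0.36 (SE 0.15, 1.28-fold, 95% interval 0.02 to 0.69, unadjusted p = 0.0380, adjusted p = 1.0 by limma, exact permutation p = 0.114). The transgenic mouse was higher on 4 of 4 slides, by 0.04 to 0.59, as were 6.08% of all probes with 8 values, and with the slide as a block the unadjusted p by limma was 0.0133 (adjusted p = 1.0). Within the scan days the difference was 0.43 and 0.28. With wild-type replicate 3 left out it was 0.25 with an unadjusted p of 0.116, and the unadjusted p also rose above 0.05 without wild-type replicate 2 or 4 or transgenic replicate 1 or 2.

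**Figure D2:**
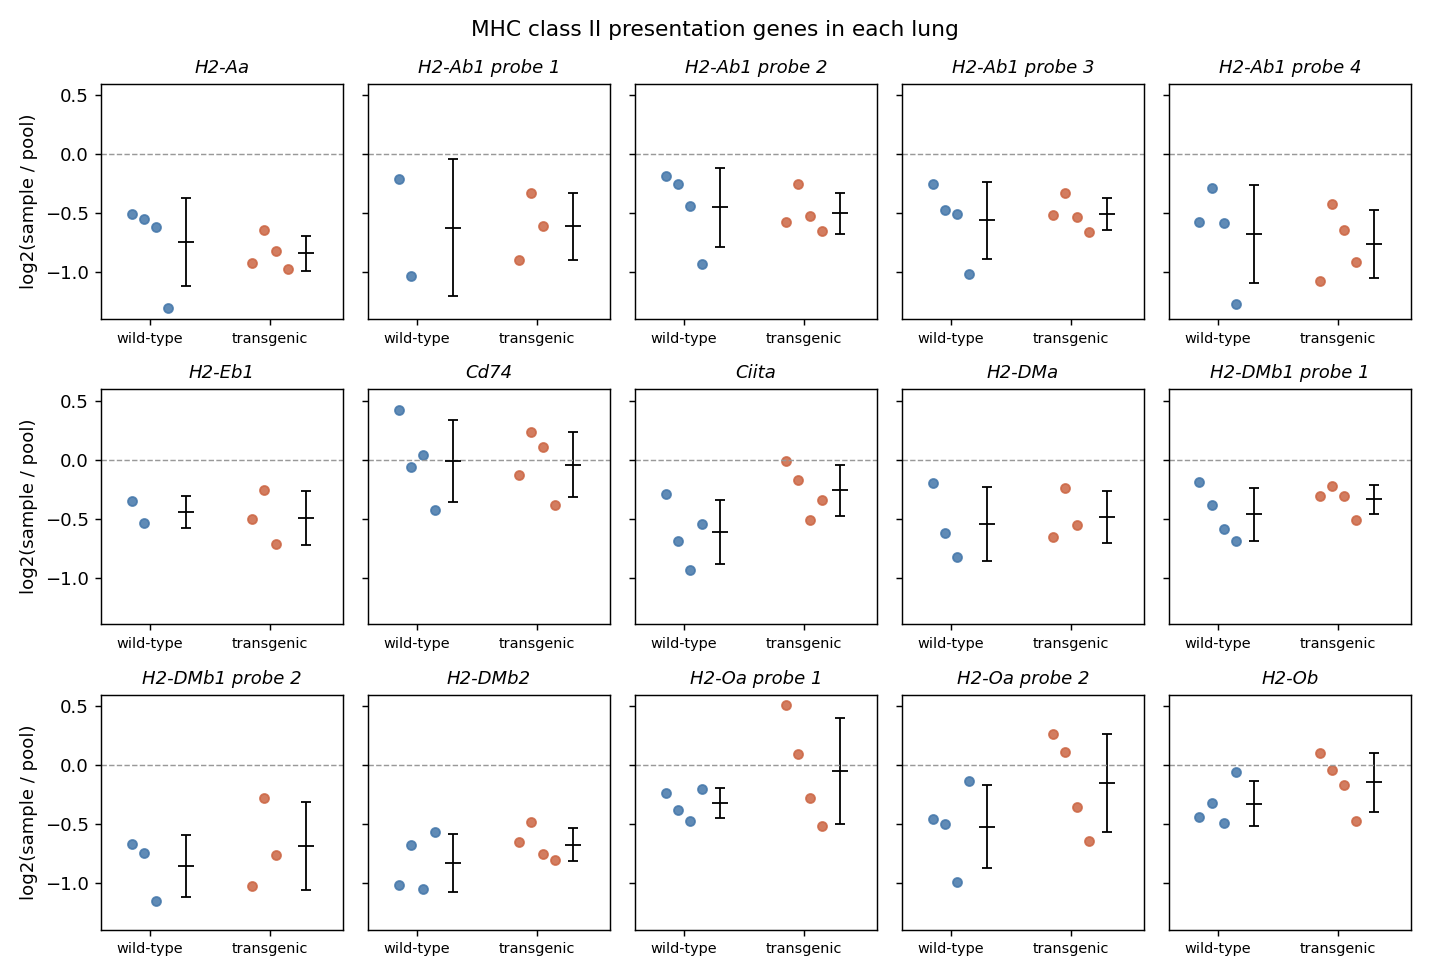
Log2 ratio of each lung over the pool (vertical axis) for the 15 class II probes tested, with blue points for wild-type mice, orange points for transgenic mice and black bars for the mean ± SD of each genotype. The genotypes overlap in every panel, and probes with fewer than 4 points in a genotype were flagged on some arrays.

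The genes of the A molecule did not part by genotype, and 1 wild-type lung was the lowest. H2-Aa, its alpha chain, had log2 ratios of -0.51, -0.55, -0.62 and -1.30 in the wild-type lungs and of -0.92, -0.64, -0.82 and -0.97 in the transgenic lungs. Wild-type replicate 4 lay below every transgenic lung and the other 3 wild-type lungs above all of them. The difference was -0.09 (SE 0.17, 95% interval -0.47 to 0.28, unadjusted p = 0.588, exact permutation p = 0.686). Without wild-type replicate 4 it was -0.28, with an unadjusted p of 0.0361 by limma.

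H2-Ab1, the beta chain of the same molecule, was read by 4 probes with differences of 0.01, -0.05, 0.05 and -0.09 (brightest first). The brightest was flagged on 3 of 8 arrays, so the probe printed at 10 spots serves for the levels in each lung. Its log2 ratios were -0.18, -0.25, -0.44 and -0.93 in the wild-type lungs and -0.57, -0.25, -0.52 and -0.65 in the transgenic lungs. Between 4 and 7 spots per array were used after flags, and the pooled SD between spots of 1 array was 0.055. The SD between mice was 0.34 in wild-type and 0.17 in transgenic lungs. Repeat spots cover the noise of spots on 1 array, and labeling and hybridization were not repeated. That replicate was the lowest lung on each of the 4 H2-Ab1 probes.

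**Figure D3:**
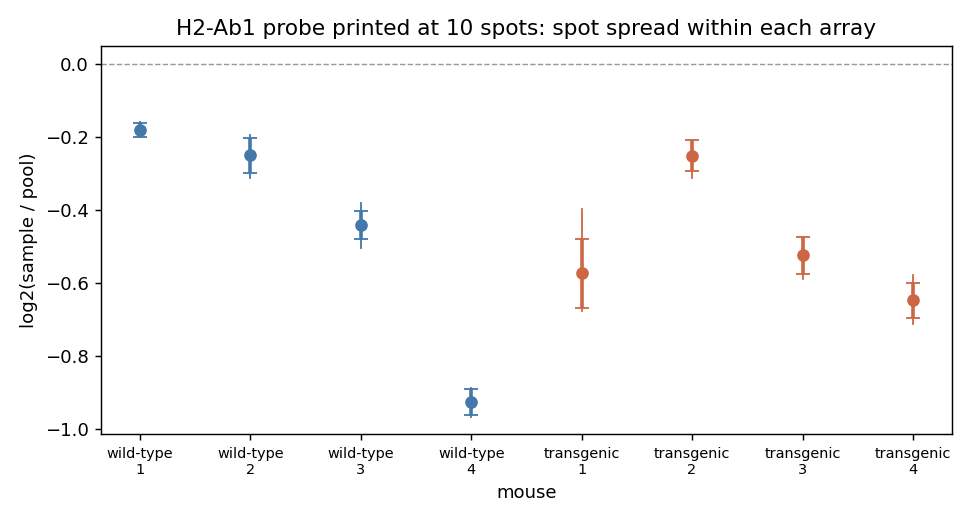
H2-Ab1 by the probe printed at 10 spots, as the log2 ratio over the pool (vertical axis) in each mouse. Points are means over the unflagged spots, thick bars with caps are ± SD between spots and thin lines run from the lowest to the highest spot. The means lie between -0.93 (wild-type replicate 4) and -0.18 (wild-type replicate 1).

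The probe assigned to H2-Eb1 had a value in 5 lungs, at -0.35 and -0.54 in wild-type replicates 2 and 3 and at -0.51, -0.26 and -0.71 in transgenic replicates 1, 2 and 4. The difference was -0.05 (SE 0.17, 95% interval -0.44 to 0.34). The matrix describes its transcript as an I-A beta chain, although its symbol is H2-Eb1, so it cannot be said which beta chain it reads.

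Cd74, the invariant chain that fills the groove of new class II molecules, was the brightest member, at percentile 99.8 of probe brightness in the sample channel. Its log2 ratios were 0.42, -0.06, 0.04 and -0.42 in the wild-type lungs and -0.13, 0.24, 0.11 and -0.38 in the transgenic lungs. The lungs of both genotypes spread over a similar range around the pool, and the difference was -0.03 (SE 0.18, 95% interval -0.43 to 0.37). On the first scan day the transgenic lungs were lower by 0.48 on average (a difference of -0.48), and on the second they were higher by 0.42. H2-Aa ran the same way, with -0.38 and 0.19, and whether the days differ was not tested.

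The peptide exchange genes did not separate the genotypes. H2-DMa, the alpha chain of H2-DM, had values in 6 lungs, at -0.20, -0.62 and -0.82 in wild-type replicates 2, 3 and 4 and at -0.66, -0.24 and -0.56 in transgenic replicates 1, 2 and 3, a difference of 0.06 (SE 0.18). H2-DMb1, a beta chain of H2-DM, had log2 ratios of -0.19, -0.38, -0.59 and -0.69 in wild-type and of -0.31, -0.22, -0.30 and -0.51 in transgenic lungs by its brighter probe. Those 4 transgenic lungs all fell within the wild-type range. The difference was 0.12 (SE 0.13, unadjusted p = 0.344), and its dimmer probe, with values in 6 lungs, gave 0.17 (SE 0.20). That value depends on which lungs are compared, since the transgenic lung was the lower on both slides that had both genotypes for this probe, and with the slide as a block the difference was -0.18.

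H2-DMb2, the other beta chain gene, had log2 ratios of -1.01, -0.68, -1.05 and -0.56 in the wild-type lungs and of -0.65, -0.48, -0.75 and -0.81 in the transgenic lungs. The difference was 0.16 (SE 0.13, unadjusted p = 0.270). H2-DMb1 and H2-DMb2 are close copies, and whether their probes cross-hybridize was not tested. The levels of both genes over the 8 lungs were nearly unrelated (Pearson r = 0.04, exact permutation p = 0.928).

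The genes of H2-DO were higher on average in the transgenic lungs within their spread, with 2 mice the highest. H2-Oa had log2 ratios of -0.24, -0.38, -0.47 and -0.20 in the wild-type lungs and of 0.51, 0.10, -0.28 and -0.52 in the transgenic lungs by its brighter probe. Transgenic replicates 1 and 2 stood above every wild-type lung and transgenic replicate 4 below them all. The difference was 0.27 (SE 0.19, 95% interval -0.14 to 0.69, unadjusted p = 0.176, exact permutation p = 0.343), and 0.09 without transgenic replicate 1 and 0.43 without transgenic replicate 4, where the unadjusted p was 0.0292. The dimmer H2-Oa probe gave 0.37 (SE 0.22, unadjusted p = 0.117, and 0.0389 by limma with the slide as a block, adjusted p = 1.0), and both probes ranked transgenic replicate 1 first.

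H2-Ob, the beta chain of H2-DO, had log2 ratios of -0.44, -0.32, -0.49 and -0.06 in the wild-type lungs and of 0.11, -0.04, -0.17 and -0.47 in the transgenic lungs. Its order among the lungs resembled that of H2-Oa, with transgenic replicate 1 highest. The difference was 0.18 (SE 0.14, 95% interval -0.13 to 0.49, unadjusted p = 0.230). Without transgenic replicate 1 it was 0.10, without transgenic replicate 4 it was 0.29 (unadjusted p = 0.0528 by limma), and with Agilent's processed signals it was 0.41 (unadjusted p = 0.123). Another H2-Ob probe was well above background on 0 arrays and gives no fold change.

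Across the 8 lungs 2 pairs of members varied together by Pearson's r, and 1 of them also by Spearman's rho. H2-Aa and H2-Ab1 rose and fell as a pair (Pearson r = 0.97, exact permutation p = 0.000174, adjusted p = 0.00625 over 36 pairs, Spearman rho = 0.98, exact permutation p = 0.000397, adjusted p = 0.0143), and r was 0.90 without the 2 lungs farthest from the median. H2-Oa and H2-Ob formed the other pair (Pearson r = 0.86, exact permutation p = 0.00169, adjusted p = 0.0304, Spearman rho = 0.90, exact permutation p = 0.00456, adjusted p = 0.0821), with r = 0.73 without the 2 farthest lungs and 0.53 in the sample channel alone. H2-Aa and H2-Oa had r = -0.14 (rho = -0.14, exact permutation p = 0.722 and 0.752). These 2 pairs were the only ones of the 36 whose Pearson r passed the adjusted threshold. All lungs share the pool in the other channel. With scan day means removed, r was 0.97 and 0.95.

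Cd74 had high correlations with the first pair that missed the adjusted threshold (r = 0.82 with H2-Aa and 0.85 with H2-Ab1, exact permutation p = 0.0126 and 0.00836, adjusted p = 0.0904 and 0.0752), as did H2-DMa over 6 lungs (r = 0.92 with H2-Ab1, exact permutation p = 0.00694, adjusted p = 0.0752). Their rho values were 0.79, 0.83 and 0.94 (exact permutation p = 0.0279, 0.0154 and 0.0167). H2-DMb2 had r = 0.80 with H2-Ob (rho = 0.88, exact permutation p = 0.0187 and 0.00724, adjusted p = 0.109 and 0.0869). Ciita had r = 0.76 with H2-Oa (rho = 0.67, exact permutation p = 0.0280 and 0.0831, adjusted p = 0.117 and 0.272) and r = -0.14 with H2-Aa. None of these relations passed it. Without the 2 lungs farthest from the median r was 0.54 for H2-Aa with Cd74, 0.66 for H2-Ab1 with Cd74, 0.92 for H2-Ab1 with H2-DMa, 0.67 for H2-DMb2 with H2-Ob and 0.50 for Ciita with H2-Oa. The probes of H2-Aa, H2-Ab1, Cd74 and H2-DMa lie at percentiles 92.6 to 99.8 of brightness and those of Ciita, H2-DMb2, H2-Oa and H2-Ob at percentiles 38.6 to 64.5, and the part of brightness in these relations was not tested.

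**Figure D4:**
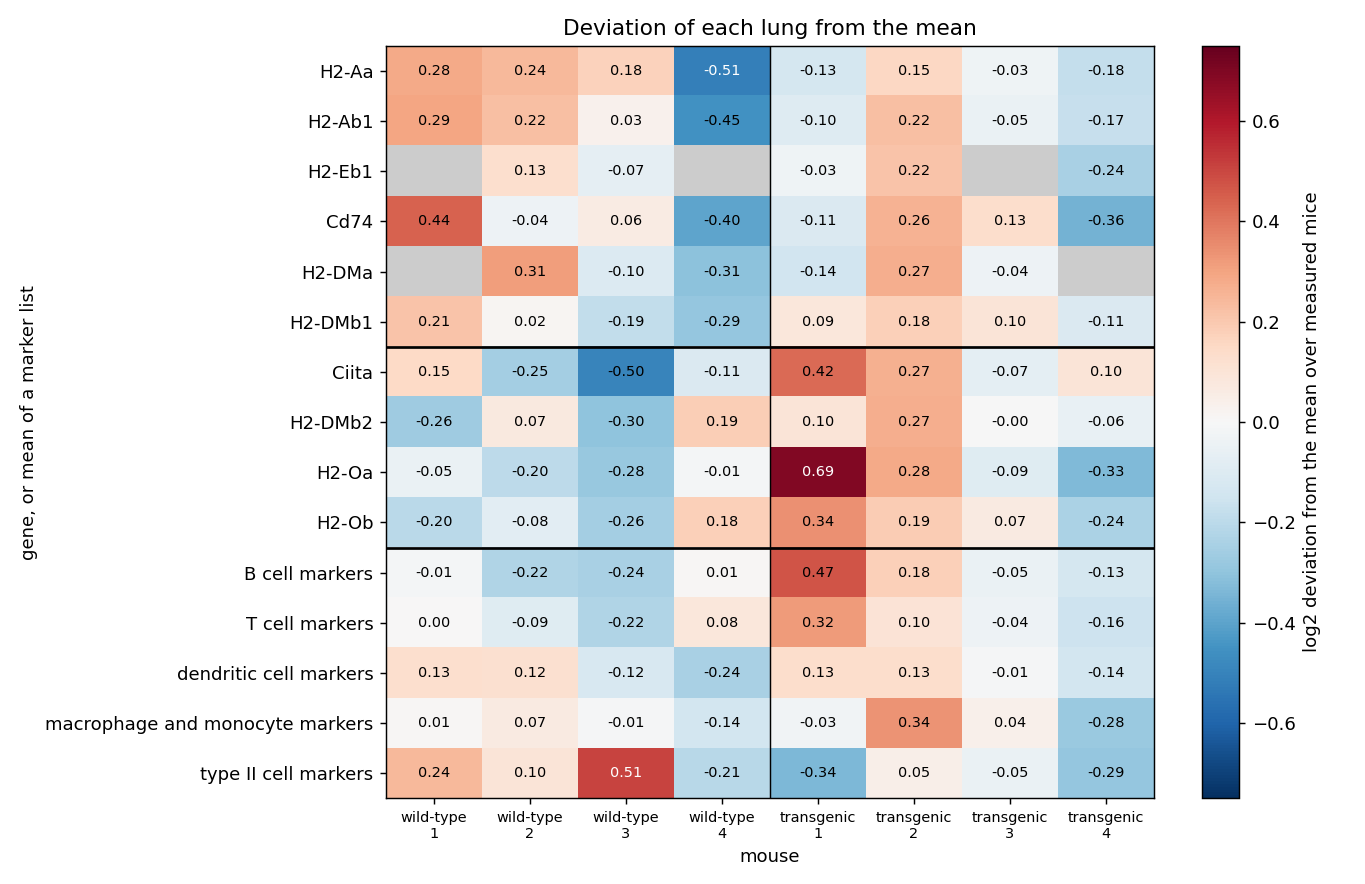
Deviation of each lung from the mean over measured lungs (log2, color and printed value) for the 10 class II genes and the means of 5 cell marker lists, with wild-type mice left and transgenic mice right of the vertical line. The upper block, H2-Aa to H2-DMb1, is lowest in wild-type replicate 4 for H2-Aa (-0.51) and H2-Ab1 (-0.45), and in the middle block, Ciita to H2-Ob, H2-Oa is highest in transgenic replicate 1 (0.69). Gray cells had no value.

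H2-Oa and, by Pearson's r only, H2-Ob and Ciita moved with the B cell markers. The mean of 10 B cell markers was between -0.25 and -0.00 in the wild-type lungs and between -0.15 and 0.46 in the transgenic lungs, with transgenic replicate 1 highest. H2-Oa followed it closely (Pearson r = 0.97, exact permutation p = 0.000645, adjusted p = 0.0145 over 45 relations, Spearman rho = 0.93, exact permutation p = 0.00223, adjusted p = 0.0335). Without transgenic replicates 1 and 2, the lungs farthest from the median of the markers, r was 0.81, and with scan day means or genotype means removed it was 0.98 and 0.97. H2-Ob had r = 0.83 (exact permutation p = 0.00474, adjusted p = 0.0426, rho = 0.88, exact permutation p = 0.00724, adjusted p = 0.0815), 0.57 without those 2 lungs and 0.50 in the sample channel alone. Ciita had r = 0.85 (exact permutation p = 0.00622, adjusted p = 0.0467, rho = 0.83, exact permutation p = 0.0154, adjusted p = 0.107) and 0.70 without them. H2-DMb2 had r = 0.50 (exact permutation p = 0.205, adjusted p = 0.369, rho = 0.71, exact permutation p = 0.0576) and did not pass.

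**Figure D5:**
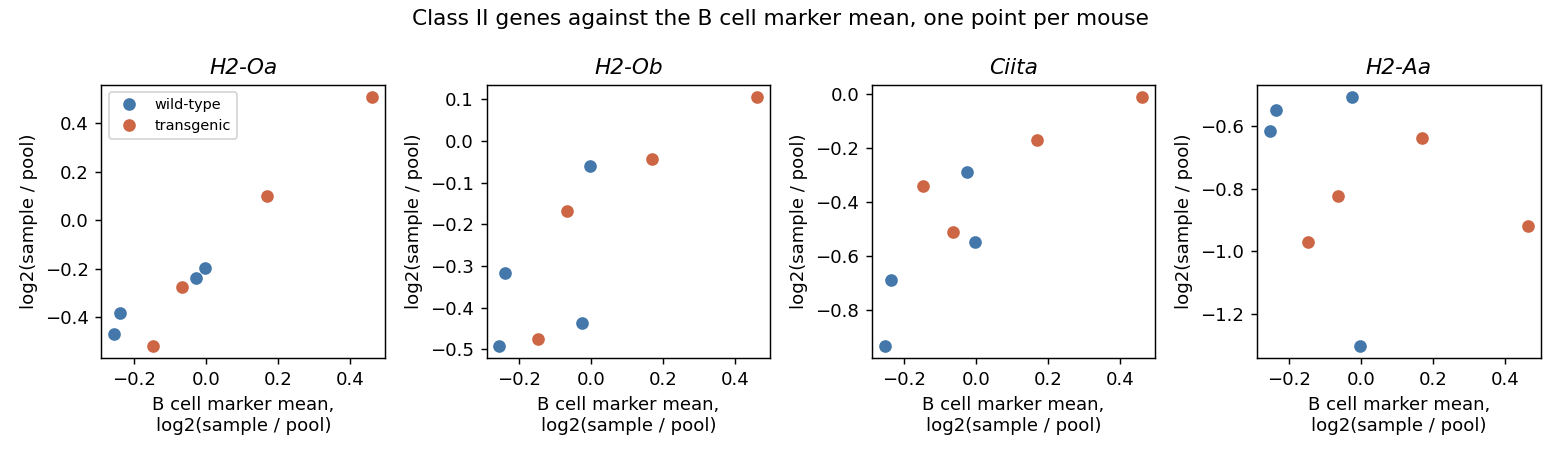
Log2 ratio over the pool of H2-Oa, H2-Ob, Ciita and H2-Aa (vertical axes, each with its own scale) against the mean log2 ratio of the B cell markers (horizontal axis), with 1 point per mouse, blue for wild-type and orange for transgenic. H2-Oa lies close to a line (r = 0.97), while H2-Aa does not follow the markers (r = -0.25).

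The means of the B cell and T cell lists ran together over the 8 lungs (r = 0.96, exact permutation p = 0.000397). Against the T cell mean H2-Oa had r = 0.96 (exact permutation p = 9.9e-05, adjusted p = 0.00446, rho = 0.98, exact permutation p = 0.000397, adjusted p = 0.0179, and 0.92 without the 2 farthest lungs). H2-Ob had r = 0.90 with it (exact permutation p = 0.00154, adjusted p = 0.0231, rho = 0.93, exact permutation p = 0.00223, adjusted p = 0.0335, and 0.80 without them), which was 0.43 in the sample channel alone. Ciita had r = 0.78 (exact permutation p = 0.0223, adjusted p = 0.126, rho = 0.76, exact permutation p = 0.0368, adjusted p = 0.138) and H2-DMb2 0.60 (exact permutation p = 0.116, adjusted p = 0.248, rho = 0.76, exact permutation p = 0.0368, adjusted p = 0.138), and neither passed. These values cannot tell B cells from T cells as the company of H2-Oa and H2-Ob. In whole lung, more cells of a type and more RNA per cell cannot be told apart.

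The genes of the A molecule did not run with the B cell markers (H2-Aa r = -0.25, exact permutation p = 0.532, rho = -0.36, exact permutation p = 0.389). H2-DMb1 ran with the mean of the dendritic cell markers by Pearson's r only (r = 0.91, exact permutation p = 0.00295, adjusted p = 0.0332, rho = 0.81, exact permutation p = 0.0218, adjusted p = 0.122). This r was 0.80 without the 2 farthest lungs and 0.64 in the sample channel alone. The dendritic cell mean followed the slides, at -0.23 to -0.22 in replicates 1 and 2 of both genotypes, which shared slides by number. In the lungs of the other slides it was -0.59 to -0.36. The permutation treats lungs that share a slide as independent, and the part of the slide in this relation was not tested. H2-Ab1 had r = 0.81 with that mean (exact permutation p = 0.0141, adjusted p = 0.0909, rho = 0.62, exact permutation p = 0.115) and 0.43 without the 2 farthest lungs, wild-type replicate 4 and transgenic replicate 4. H2-Aa had r = 0.73 with the mean of 5 type II cell markers (exact permutation p = 0.0373, adjusted p = 0.168, rho = 0.83, exact permutation p = 0.0154, adjusted p = 0.107). With the macrophage and monocyte mean, H2-DMa had r = 0.81 over 6 lungs (exact permutation p = 0.0278, adjusted p = 0.139, rho = 0.94, exact permutation p = 0.0167, adjusted p = 0.107). Cd74 had r = 0.70 with it (exact permutation p = 0.0472, adjusted p = 0.193), and no relation with that mean passed. Of the 45 relations 6 passed the adjusted threshold by Pearson's r and 3 of these by Spearman's rho.

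Most B cell markers were higher and the type II cell markers lower in the transgenic lungs, by amounts that rest in part on single mice. Of the B cell markers 9 of 10 were higher in the transgenic lungs, beside 50.4% of all probes, with a median of 0.11. The difference of the list mean was 0.23, or 0.12 without transgenic replicate 1. Ms4a1, the CD20 antigen, was higher by 0.63 (SE 0.25, unadjusted p = 0.0297), and Fcrla, a B cell Fc receptor-like protein, by 0.34 (SE 0.13, unadjusted p = 0.0294). Of the type II cell markers 8 of 8 were lower, with a median of -0.54, among them the surfactant proteins Sftpa1 (-0.75, unadjusted p = 0.0238) and Sftpd (-0.47, unadjusted p = 0.0133) and the lamellar body protein Lamp3 (-0.96, unadjusted p = 0.0274). Without wild-type replicate 3 the values were -0.44 for Sftpa1, -0.57 for Lamp3 and 0.40 for Ms4a1. The type II list mean covers only the 5 genes with a probe measured in all 8 lungs. Without that mouse the difference of this mean went from -0.32 to -0.20. Lamp3 had values in 6 lungs by its brightest probe (exact permutation p = 0.3). It was -0.59 with flagged spots kept (unadjusted p = 0.160) and -0.64 in the authors' matrix (unadjusted p = 0.216). As the mean of its probes it was -0.47 (unadjusted p = 0.0878 by limma). Fcrla was 0.74 in the authors' matrix. Abca3, the lipid carrier of lamellar bodies, had -0.01. The list means did not separate the genotypes, at 0.01 to 0.73 in wild-type and -0.12 to 0.27 in transgenic lungs for the type II list. Over all probes 2.09% had an unadjusted p under 0.05. Of the 8 listed genes with such a p, 7 lost it without at least 1 of the mice, the exception being Sftpd. In the sample channel alone Sftpd had -0.33 (unadjusted p = 0.0921 by limma). None of these genes passed the adjusted test, and the part of cell makeup in the differences of H2-Oa, H2-Ob and Ciita was not tested.

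Dendritic cell markers were level between the genotypes (7 of 9 higher, beside 50.4% of all probes, median 0.02). They ran from Itgae, an integrin of airway dendritic cells, at -0.15 to Ccr7, the receptor that guides such cells to lymph nodes, at 0.33. The ranges of their mean were -0.59 to -0.23 in wild-type and -0.49 to -0.22 in transgenic lungs. Macrophage and monocyte markers split evenly (4 of 8 higher, median 0.02). Siglec5, a sialic acid-binding receptor, was higher by 0.28 (SE 0.10, unadjusted p = 0.0185), and Emr1, which encodes F4/80, had -0.11. Of the T cell markers 5 of 7 were higher, from Cd4 at -0.12 to Cd3d, a chain of the T cell receptor complex, at 0.45 (unadjusted p = 0.0899).

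Genes that work with the class II genes moved little. Among 16 tested genes of their transcription 11 were higher, beside 50.4% of all probes, with a median of 0.05. Irf8, an interferon regulatory factor of dendritic cells, macrophages and B cells, was the only one with an unadjusted p under 0.05 (0.30, SE 0.13, unadjusted p = 0.0346). Jak2, a kinase of interferon-gamma signaling, was the lowest at -0.11. Of 8 genes of antigen and invariant chain processing 2 were higher, with a median of -0.03, from the cathepsin Ctsh at -0.24 to the legumain gene Lgmn at 0.14. Of 5 genes of class II turnover and costimulation 5 were higher, from Cd40 at 0.02 to Cd86 at 0.17. H2-Eb2, a neighbor of H2-Eb1, had 0.01.

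The members read low against the pool in both genotypes. Of the 15 probes 11 were below the pool on every array with a value, as were 20.4% of all probes, and 7 had a mean log2 ratio under -0.5, as did 6.71%. The median of the 15 means was -0.48, beside 0.01 over all probes. The mean over the lungs was -0.79 for H2-Aa, -0.75 for H2-DMb2, -0.44 for Ciita and -0.02 for Cd74. The order from H2-Aa to Cd74 is that of ratios and says nothing about which transcript is more abundant. According to the methods the pool holds equal RNA of each sample, so these levels are not read as lower expression in the lungs. No array had the dyes swapped, and the part of the dyes was not tested. The same 11 of 15 probes were counted below the pool under each of the 6 other scalings of the ratio, beside 20.3% to 23.1% of all probes.

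The lungs' mean deviation over H2-Aa, H2-Ab1, H2-Eb1 and Cd74, each lung over the 2 to 4 of them it had values for, ran from -0.44 (wild-type replicate 4) to 0.36 (wild-type replicate 1, by 2 genes, H2-Aa and Cd74). Among 17334 genes with 8 values the 5 that are not members and ran closest to it were 4933422H20Rik (r = 0.98), Prr15 (0.96), Ms4a8a (0.95), the hemoglobin scavenger receptor Cd163 (0.93) and the phosphatase Dusp19 (0.93). Their genotype differences lay between -0.17 (Cd163) and -0.02 (4933422H20Rik). H2-DMb1 stood at rank 142, Ciita at 8434, H2-Oa at 8922, H2-Ob at 13643 and H2-DMb2 at 14197. These correlations over 8 lungs are descriptions, picked as the highest of many.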

How the data were processed

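The members, gene lists and tests were chosen with earlier results of these data known. Lung RNA of 8 mice, grouped by genotype as labeled, was hybridized with Cy5 for the mouse and Cy3 for the pool. The authors deposited Agilent Feature Extraction output with raw and processed spot intensities and log10 ratios of processed Cy5 over Cy3 (version 10.10.1.1 per the file headers, 11.0.1.1 in the submitters' processing notes), and a matrix of log2 ratios, which for 39811 single-spot probes equal the processed ratios within 0.001. Outlier and background calls were deposited as flags. The methods name GeneSpring and a t-test.

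Values were recomputed with limma 3.58.1 under R 4.3.3. Raw median signals were background-corrected by normexp (offset 50, fitted on unflagged spots), normalized by loess within arrays (span 0.3) and averaged over unflagged spots of a probe. A probe was tested if well above background on 4 of 8 arrays and with 2 values per genotype, which 32645 of 41174 probes met. The test was limma's two-sided moderated test, adjusted by Benjamini-Hochberg across the tested probes. Exact permutation tests of 4 against 4 mice cannot give a p below 0.0286, and with 5 or 6 values not below 0.1. Correlations used exact permutation over lungs, which treats lungs that share a slide as independent, and slide means were not removed. The number of arrays limits the precision. The fit was tested on simulated data.

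A gene was represented by its brightest probe, or by the brightest with 8 values in correlations and list means. List means left out genes without such a probe. The mean deviation over H2-Aa, H2-Ab1, H2-Eb1 and Cd74 was an exception and used the brightest probe of each, which for H2-Ab1 had values in 5 lungs. Named genes were every member, Scgb3a2, the highest and lowest of each list and list genes with an unadjusted p under 0.05, and the 5 genes most like the class II mean. A list gene that this rule names is not reported here. Symbols came from the matrix, and promoters from RefSeq (GRCm38.p6), which matched 7 of the members. Alternative settings changed scaling, filters, channel, blocks and weights, used the matrix, or left out each mouse. Python 3.11.15 and matplotlib 3.10.9 drew the figures.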

Additional observations from a re-analysis of the deposited data

Results flagged for a closer look

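H2-Aa in wild-type replicate 4, with a log2 ratio of -1.30, lay far below the other wild-type lungs. The gap to the nearest of them was 0.864 of the range of the 4 wild-type values, against a critical value of 0.829. In all 22 sets of 4 values of a probe in a genotype were examined and 1 stood apart, and chance alone sets apart about 1 in 20. The same lung was lowest among the wild-type lungs for Cd74, at -0.42, and for H2-DMb1, at -0.69. It was the highest of them for H2-DMb2, at -0.56, H2-Oa, at -0.20 by its brighter probe, and H2-Ob, at -0.06.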

How the results depend on the processing

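The genotype differences of Ciita, H2-DMb2, H2-Oa, H2-Ob and Scgb3a2 kept their direction under all 23 alternatives tried, Ciita between 0.25 and 0.47 and Scgb3a2 between 0.73 and 1.11, and 0 member or listed genes passed the adjusted test under any of them. Members near 0 changed sign. H2-Ab1 gave -0.0031 with Agilent's processed signals, -0.26 with median-centring, -0.16 with the sample channel alone, -0.10 with flagged spots kept, -0.15 in the authors' matrix, -0.052 as the mean of its probes and -0.13 to 0.15 when a mouse was left out. H2-DMa gave -0.071 with median-centring, -0.12 in the sample channel, -0.020 with flagged spots, -0.043 in the matrix and -0.076 to 0.23 by left-out mouse. Cd74 gave 0.13 with normexp fitted on all spots, 0.0018 in the sample channel, 0.14 with array weights and -0.17 to 0.11 by left-out mouse. H2-Eb1 gave 0.086 in the sample channel, 0.015 with weights and -0.17 to 0.061 by left-out mouse, H2-DMb1 -0.0013 in the sample channel and H2-Aa 0.025 with weights.

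Among the other named genes, H2-K1 gave 0.012 with processed signals and in the matrix, 0.052 with normexp on all spots, 0.061 as a mean of probes and -0.20 to 0.035 by left-out mouse. Abca3 gave 0.051 with processed signals and in the matrix, 0.033 with normexp on all spots and -0.073 to 0.051 by left-out mouse. H2-Eb2 gave -0.085 with normexp on all spots, -0.072 with median-centring, -0.11 in the sample channel, -0.029 with weights, -0.0035 as a mean of probes and -0.071 to 0.14 by left-out mouse. Cd40 gave -0.033, -0.081, -0.0068 and -0.064 under the first 4 of these and -0.049 to 0.098 by left-out mouse. Emr1 gave 0.040 with weights and -0.27 to 0.025 by left-out mouse, Jak2 0.046 with flagged spots and 0.0066 in the matrix, Lgmn -0.027 in the sample channel and Itgae 0.0064 as a mean of probes.

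At an unadjusted p under 0.05 the 1 member gene higher became 0 with processed signals, normexp on all spots, median-centring, the matrix and the methods' t-test, and 0 to 2 when a mouse was left out, and the 0 lower became 0 to 1. Of the other listed genes the 5 higher became 1 with normexp on all spots, median-centring or the sample channel, 2 with the methods' t-test, 10 with the slide as a block and 1 to 10 by left-out mouse. The 3 lower became 1 with processed signals, the matrix or the methods' t-test, 0 in the sample channel, 5 with the replicate block and 1 to 6 by left-out mouse. Over all probes 365 were higher and 318 lower at that threshold, which became 120 and 482 with median-centring (median difference -0.05), 135 and 256 with normexp on all spots, 89 and 212 in the sample channel, 620 and 575 with the slide as a block and 576 and 571 with weights. They were 603 and 572 without wild-type replicate 4, 439 and 635 without transgenic replicate 1 and 588 and 444 without transgenic replicate 4. The causes were not tested.

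The main test did not pair the mice by replicate number. Deviations of same-numbered mice correlated at 0.32, 0.25, -0.08 and -0.21. The mice numbered 1 shared a slide, as did those numbered 2, so 0.32 and 0.25 cannot tell a pairing by number from the slide. With the replicate block Ciita had 0.36 with an unadjusted p of 0.00836, and over all probes 430 were higher and 428 lower. Mice of the same slide, each with 1 of each genotype, correlated at 0.08 to 0.32, and with the slide as a block Ciita had an unadjusted p of 0.0133 and the dimmer H2-Oa probe of 0.0389. The alternatives to the correlations and the list means without a mouse were chosen after seeing the data. In the sample channel alone r fell to 0.50 for H2-Ob with the B cell markers, 0.43 for H2-Ob with the T cell markers, 0.53 for H2-Oa with H2-Ob, 0.64 for H2-DMb1 with the dendritic cell markers and 0.08 for H2-Aa with Cd74, and stayed at 0.85 for H2-Oa with the B cell markers. H2-Aa with Cd74 was also 0.62 with normexp on all spots and 0.73 without wild-type replicate 4, and H2-Ob with the B cell markers 0.73 without transgenic replicate 1.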

Other observations

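MHC class I presentation genes, which show peptides made inside the cell to CD8+ T cells, were mostly higher on average in the transgenic lungs, which rests largely on 1 wild-type lung. Of 10 tested genes 9 were higher, beside 50.4% of all probes, with a median of 0.17 on the log2 scale, and 0 passed the adjusted test by limma, with 1 at an unadjusted p under 0.05 (higher, as were 1.12% of all probes at that threshold). That gene was Psmb10, a subunit of the immunoproteasome that cuts proteins into peptides, at 0.30 (SE 0.11, unadjusted p = 0.0231), and H2-K1, a class I heavy chain, was the lowest at -0.05. The mean of the list, over its 9 genes with 8 values, ran from -0.58 to -0.02 in wild-type and from -0.17 to 0.04 in transgenic lungs. Its difference was 0.15, and 0.029 without wild-type replicate 3, the lowest lung. Without that lung Psmb10 had 0.22 (unadjusted p = 0.0701 by limma).

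Another H2-Aa probe, which the array output assigns by transcript accession and the matrix does not name, had values in 2 transgenic lungs, at -1.34 and -0.85.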
